A study of Mus musculus with 17 samples.

Results

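The clustered protocadherins are a family of neuronal adhesion proteins encoded by neighbouring alpha, beta and gamma gene clusters. All genes whose symbol begins with Pcdha, Pcdhb or Pcdhg were taken, which gave 59 genes of 78298: 15 in the alpha cluster, 22 in the beta cluster and 22 in the gamma cluster. RNA was sequenced from brainstem tissue labelled locus coeruleus of male C57BL/6 mice, of an age the labels leave out. In the vindeburnol group (n = 5 libraries) and the VB-127 group (n = 6) the mice received the compound by oral gavage at 20 mg/kg once a day for 5 days, with water as the solvent, and tissue was taken 24 hours after treatment. The control group (n = 6) was untreated, and no group is described as given gavage without a compound, so an effect of a compound and an effect of gavage cannot be told apart. Vindeburnol is a man-made compound related to the vinca alkaloids, from which VB-127 is derived according to the labels.

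Each neuron switches on a small set of these genes, and the proteins on its surface bind the same proteins on a neighbouring membrane, which lets neurites of a cell recognise and avoid each other. In the alpha and gamma clusters each gene has its own first exon and promoter, and that exon is spliced to constant exons shared by the whole cluster, so that the proteins share a cytoplasmic tail. Genes of the beta cluster are mostly single exons and have no shared tail. Promoters are chosen largely at random through DNA methylation and through loops made by CTCF and cohesin, except for the C-type genes Pcdhac1, Pcdhac2, Pcdhgc3, Pcdhgc4 and Pcdhgc5 at the ends of the alpha and gamma clusters, which are used more uniformly. Pcdhac2 is known for spacing the axons of serotonergic neurons, Pcdhgc4 for the survival of inhibitory interneurons and Pcdhgc3 for dendrite growth through Axin1.

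Values are TPM, a level per transcript length expressed as a share of a library's total. Read depth is therefore unknown, and precision rests on the spread between the 17 libraries. Nothing in the labels ties a library to an animal of its own, and p-values measure the spread between these samples, which may be technical. Bc1, a short neuronal RNA, accounted for 16.1% to 35.3% of TPM, most in control replicate 4, which also had the lowest median-ratio size factor (0.783, against 0.871 to 1.16 in the others). Among the genes of noradrenergic neurons, those for making and taking up noradrenaline were low: Dbh, the enzyme that makes noradrenaline, ranged from 0 to 18.9 TPM (median 1.08) and the transporter gene Slc6a2 from 0 to 8.94 TPM (median 0.30). Th, an earlier enzyme of the same synthesis that dopaminergic neurons share, was at 17.8 to 154 TPM (median 74.5), beside 1.04 to 124 TPM (median 45.5) for the dopamine transporter gene Slc6a3. Tph2, the enzyme of serotonin synthesis, was at the level of Th, from 1.08 to 129 TPM (median 74.2). Because this is bulk tissue, fewer cells of a type and less RNA per cell cannot be told apart.

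All but 1 of the 59 genes had a value above 0 in at least 1 library, the exception being Pcdha4b. The gamma cluster was the most abundant. Its genes summed to 145 to 228 TPM per library, against 27.5 to 65.4 TPM for the beta cluster and 25.2 to 42.5 TPM for the alpha cluster. The gamma sum was 69.2% of the total of the 3 clusters on average, with a range of 63.2% to 73.4%, the beta sum 17.8% and the alpha sum 13.0%. Groups were compared for genes with at least 1 TPM in 5 or more libraries, and 53 of the 59 met this: 12 alpha, 20 beta and 21 gamma genes. The 6 others were Pcdha1, Pcdha8, Pcdha4b, Pcdhb1, Pcdhb21 and Pcdhgb8, whose means over the 17 libraries ran from 0 to 0.837 TPM. Pcdhgb8 is annotated as a polymorphic pseudogene in GENCODE M21.

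**Figure D1:**
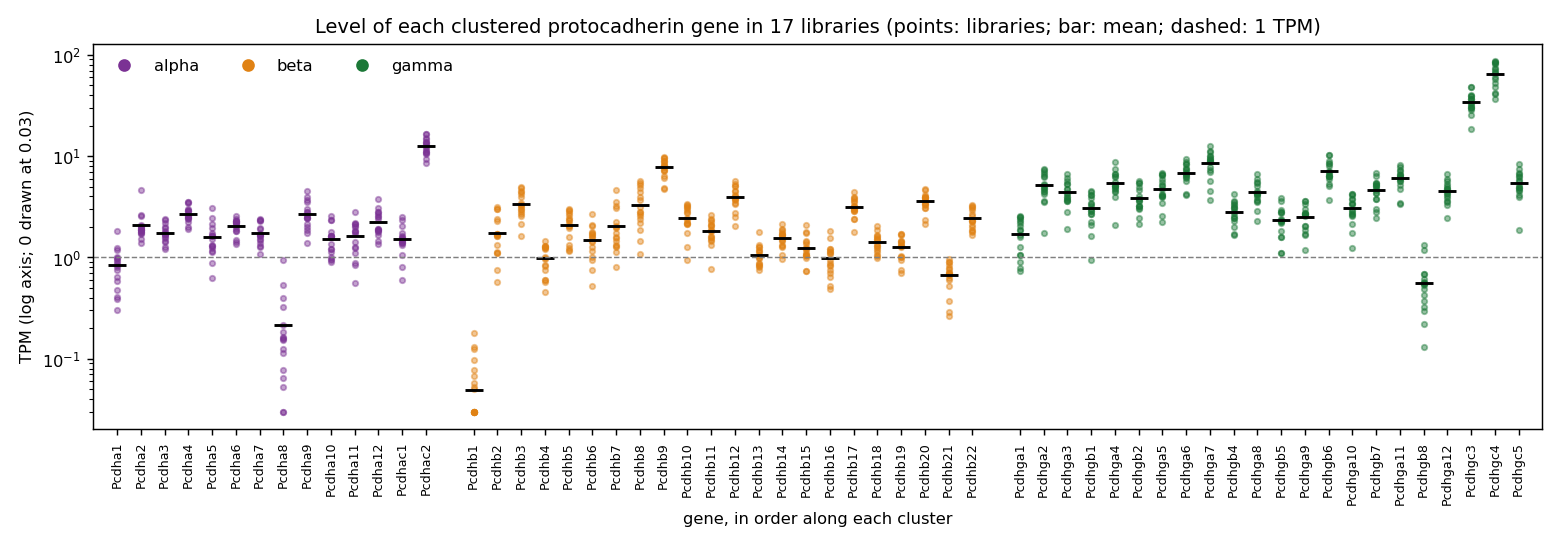
Level of 58 clustered protocadherin genes in each of the 17 libraries, in order along the alpha, beta and gamma clusters (TPM on a log axis, with 0 drawn at 0.03); points are libraries, bars are means and the dashed line marks 1 TPM. Pcdha4b, at 0 in all libraries, is not drawn; Pcdhgc4, Pcdhgc3 and Pcdhac2 are the 3 genes with a mean above 10 TPM.

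The 3 highest genes of the family were all C-type. Pcdhgc4 had a mean of 65.2 TPM ± 16.5 (SD, n = 17), Pcdhgc3 34.4 ± 7.57 and Pcdhac2 12.6 ± 2.34. The other C-type genes were lower, with Pcdhgc5, which is known to bind GABA-A receptors, at 5.42 TPM ± 1.5 and Pcdhac1 at 1.52 ± 0.477. Pcdhgc5 measured 7.40, 6.39, 4.13, 1.88, 4.85 and 4.53 TPM in controls, 5.68, 6.76, 5.15, 5.81 and 4.64 TPM after vindeburnol and 4.85, 3.97, 4.94, 6.26, 6.61 and 8.31 TPM after VB-127, so control replicate 4 was its lowest library and the groups overlapped. Pcdhac1 measured 1.48, 1.6, 1.46, 1.54, 1.06 and 2.49 TPM in controls, 0.605, 2.35, 0.798, 1.51 and 1.62 TPM after vindeburnol and 1.40, 1.75, 1.34, 1.40, 2.06 and 1.43 TPM after VB-127, with its lowest libraries in the vindeburnol group. Not every C-type gene was high: Pcdhac1 lay below the median of 1.89 TPM of the 12 tested alpha genes, and Pcdhgc5 lay above the median of 4.62 TPM of the 21 tested gamma genes.

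Among the remaining alpha genes, Pcdha4 (mean 2.71 TPM), Pcdha9 (2.70 TPM) and Pcdha12 (2.26 TPM) were the highest, and those 3 means differed by less than the SD of Pcdha9 or Pcdha12 between libraries. Pcdha4 was at 1.91 to 2.94 TPM in controls (median 2.66), 2.23 to 3.54 after vindeburnol (median 2.56) and 1.99 to 3.56 after VB-127 (median 2.70), so its groups covered much the same range. Pcdhac2 made up 28.4% to 42.0% of the alpha sum in every library. No alpha gene other than Pcdhac2 had a mean above 2.71 TPM. Pcdha8 had 0.216 TPM on average and was at 0 in 2 of 17 libraries.

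In the beta cluster 1 gene stood above the rest. Pcdhb9 had a mean of 7.73 TPM ± 1.56 (SD, n = 17) and held 13.0% to 18.4% of the beta sum, ahead of Pcdhb12 at 3.99 TPM, Pcdhb20 at 3.58 TPM and Pcdhb3 at 3.41 TPM. Pcdhb9 had group means of 7.76 TPM ± 1.8 (SD, n = 6) in controls, 8.12 ± 1.32 (n = 5) after vindeburnol and 7.39 ± 1.67 (n = 6) after VB-127. In the same order the means were 3.56 ± 0.805, 4.54 ± 1.03 and 3.96 ± 1.08 TPM for Pcdhb12 and 3.23 ± 0.926, 3.44 ± 1.24 and 3.56 ± 0.857 TPM for Pcdhb3. The groups of these 3 genes lay within 1 TPM of each other and overlapped. Pcdhb1, the first gene of the cluster, was at the bottom with 0.0492 TPM, and it was above 0 in 9 of 17 libraries. The median of the 20 tested beta genes was 1.94 TPM.

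The gamma cluster holds 12 A-type, 7 B-type and 3 C-type genes. The 3 C-type genes summed to 105 TPM on average (84.4 to 130), the A-type genes to 57.5 TPM (27.7 to 74.2) and the B-type genes to 24.4 TPM (12.5 to 33.6). Outside the C-type genes, Pcdhga7 (8.56 TPM), Pcdhgb6 (7.08 TPM) and Pcdhga6 (6.89 TPM) were highest. Group means were 7.83 ± 2.64 TPM (SD, n = 6) in controls, 9.27 ± 2.0 (n = 5) after vindeburnol and 8.69 ± 2.53 (n = 6) after VB-127 for Pcdhga7, and 6.11 ± 1.82, 7.90 ± 1.73 and 7.37 ± 1.63 TPM for Pcdhgb6, with groups that overlapped. Of the 21 tested gamma genes, Pcdhga1 was lowest at 1.72 TPM.

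Pcdhgc4 varied in the opposite direction to the rest of its cluster. In controls, replicates 1 to 6, it measured 66.2, 60.7, 52.9, 84.7, 84.2 and 48.7 TPM. After vindeburnol it measured 74.4, 83.8, 65.9, 42.2 and 70.0 TPM, and after VB-127 72.4, 86.0, 80.9, 40.7, 36.8 and 58.3 TPM. Its share of the gamma sum ran from 19.1% (VB-127 replicate 5) to 58.3% (control replicate 4). By group the share was 28.4% to 58.3% in controls, 21.2% to 40.3% after vindeburnol and 19.1% to 50.2% after VB-127, so the 3 groups overlapped.

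Pcdhgc3 ran the other way. Its values were 33.0, 36.8, 36.4, 18.6, 30.0 and 31.2 TPM in controls. They were 30.1, 39.0, 36.5, 47.8 and 28.3 TPM after vindeburnol and 33.1, 25.3, 30.3, 39.6, 48.6 and 40.3 TPM after VB-127. The libraries with the lowest Pcdhgc4 (VB-127 replicates 5 and 4 and vindeburnol replicate 4) had Pcdhgc3 at 48.6, 39.6 and 47.8 TPM, and control replicate 4, with Pcdhgc4 at 84.7 TPM, had the lowest Pcdhgc3. The ratio of Pcdhgc4 to Pcdhgc3 ranged from 0.757 to 4.56. In the same order, the libraries with the lowest Pcdhgc4 had Bc1 shares of 16.7%, 18.3% and 16.9%, and control replicate 4 had 35.3%. Vindeburnol replicate 2 went the other way, with 83.8 TPM of Pcdhgc4 and a Bc1 share of 16.1%. A link of the course with the Bc1 share was not tested.

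**Figure D2:**
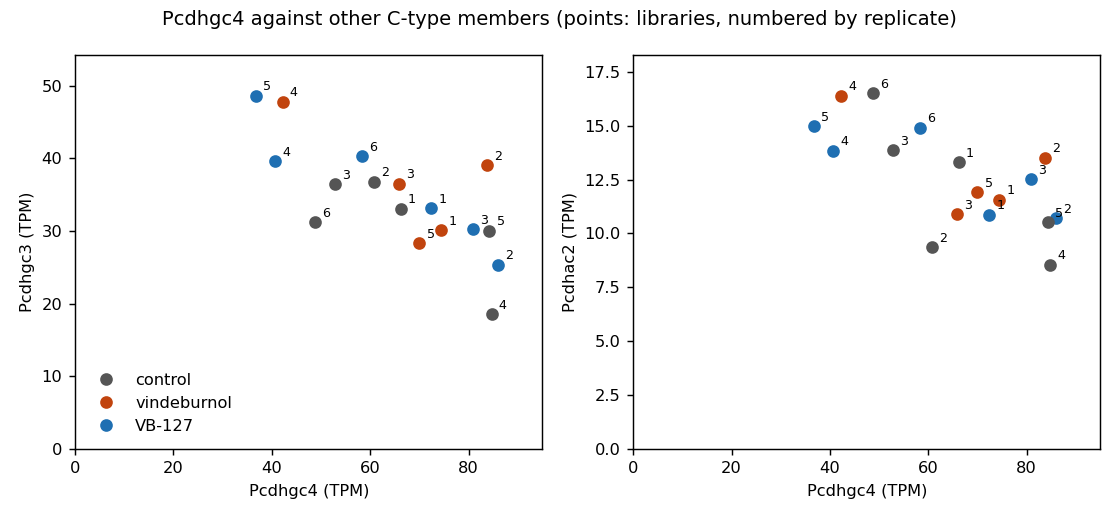
Pcdhgc4 (TPM, horizontal axis) against Pcdhgc3 (left) and Pcdhac2 (right; TPM, vertical axes) in the 17 libraries, coloured by group and numbered by replicate. The 3 libraries with the least Pcdhgc4 (36.8 to 42.2 TPM) lie high in both panels, and vindeburnol replicate 2, with much Pcdhgc4 (83.8 TPM), goes against the course with 39.0 TPM of Pcdhgc3 and 13.5 TPM of Pcdhac2.

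Over the 17 libraries Pcdhgc4 and Pcdhgc3 had a Pearson r of -0.750 (permutation p = 0.00039, adjusted p = 0.00156 over 4 relations) and a Spearman rho of -0.767 (permutation p = 0.00047, adjusted p = 0.00188). Without VB-127 replicates 4 and 5, the 2 libraries farthest from the median of Pcdhgc4, r was -0.665, and with each group centred on its mean it was -0.789. Pcdhgc4 and Pcdhac2, which lies in another cluster, had an r of -0.705 (permutation p = 0.00173, adjusted p = 0.00346) and a rho of -0.740 (permutation p = 0.00103, adjusted p = 0.00206). Without the same 2 libraries r was -0.692. With each of the 17 libraries left out in turn, r ran from -0.842 to -0.683 for Pcdhgc3 and from -0.783 to -0.654 for Pcdhac2. In the vindeburnol group the opposite course rests on replicate 4: replicates 1, 2, 3 and 5 do not show it. Without vindeburnol replicate 4, r over the other libraries was -0.706 for Pcdhgc3 and -0.654 for Pcdhac2. These relations were chosen after the values were seen, so the p-values describe them and are no independent test. The adjustment over 4 relations does not account for that choice.

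The opposite course extended to most of the family. Pcdhgc4 had a negative r with all 20 other tested gamma genes (-0.795 to -0.296), with 18 of 20 beta genes and with 10 of 12 alpha genes. In the same libraries 71.9% of the 16152 other genes tested also had a negative r with Pcdhgc4. After scaling of each library by the median ratio of its genes, which takes out shifts common to most genes, that share was 48.9%, whereas the family still had a negative r in 48 of 52 genes. With this scaling r was -0.683 for Pcdhgc3 (permutation p = 0.00247) and -0.582 for Pcdhac2 (permutation p = 0.0142). Without scaling, Pcdhgc3 had a positive r with all 19 other tested gamma genes besides Pcdhgc4, from 0.510 to 0.913 and highest with Pcdhgb7, where 81.8% of all other genes tested had a positive r with it. After scaling the 19 values ran from 0.306 to 0.889, and the share over all genes was 47.3%. The points share their libraries and their TPM totals, so these r values over 17 libraries are descriptions.

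The gene models bear on how reads are shared. In GENCODE M21 each alpha and gamma gene ends in 3 constant exons that add 2860 bases in the alpha cluster and 2119 bases in 17 of the 22 gamma genes, with 2116 bases in the other 5. These exons were 48.6% to 54.9% of the longest full alpha transcripts and 41.7% to 45.9% of the gamma ones, whereas 18 of the 22 beta genes are single exons. Pcdhgc4 has a second transcript of 2272 bases, of which 93.3% is constant sequence common to every gamma gene, beside its full transcript of 5024 bases (42.2%). It was the only 1 of 22 gamma genes with a transcript over 90% constant; the next highest share was 75.2%, in a fragment of 593 bases of Pcdhgc5. Reads inside the constant exons cannot be assigned to 1 gene, so levels of single alpha and gamma genes are uncertain to that extent. The sources used here do not name the annotation used for counting, and the part of this transcript in the values of Pcdhgc4 was not tested. Any overlapping antisense genes, which were not looked for, would be a further limit, because it is not stated whether counting used strand.

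Pcdhac2 was also set beside 2 serotonergic genes, since its known role is in those neurons. It measured 13.3, 9.36, 13.9, 8.54, 10.5 and 16.5 TPM in controls, 11.6, 13.5, 10.9, 16.4 and 11.9 TPM after vindeburnol and 10.9, 10.7, 12.5, 13.8, 15.0 and 14.9 TPM after VB-127. With Tph2 its r was 0.304 (permutation p = 0.234, adjusted p = 0.234 over the 4 relations) and its rho 0.132 (permutation p = 0.614). With the serotonin transporter gene Slc6a4, r was 0.394 (permutation p = 0.116, adjusted p = 0.155) and rho 0.387 (permutation p = 0.125). Without control replicates 4 and 6, the 2 libraries farthest from the median of Pcdhac2, r was 0.32 and 0.440. No relation was detectable at this number of libraries, and the one with Slc6a4 was r = 0.483 after median-ratio scaling (permutation p = 0.0490, not adjusted) and r = 0.544 without control replicate 4 (permutation p = 0.0307, not adjusted), whereas it was 0.270 without control replicate 6 (permutation p = 0.310).

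In unscaled TPM the mean summed level of each cluster was highest after vindeburnol, and the gamma means lay farthest apart. The alpha sum was 34.5 TPM ± 5.77 (SD, n = 6) in controls, 36.1 ± 4.93 (n = 5) after vindeburnol and 35.2 ± 4.84 (n = 6) after VB-127. The beta sum was 46.9 ± 10.2, 50.7 ± 8.01 and 48.6 ± 9.77 TPM in the same order. The gamma sum was 176 ± 16.3, 199 ± 19.4 and 188 ± 9.03 TPM, and without Pcdhgc4 it was 110 ± 26.3, 131 ± 20.4 and 126 ± 28.0 TPM. All 3 pairs of groups overlapped in each sum. With median-ratio scaling the alpha mean was highest in controls, at 35.8, against 35.5 after vindeburnol and 33.6 after VB-127. The scaled gamma means were 184, 196 and 181 in the same order.

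**Figure D3:**
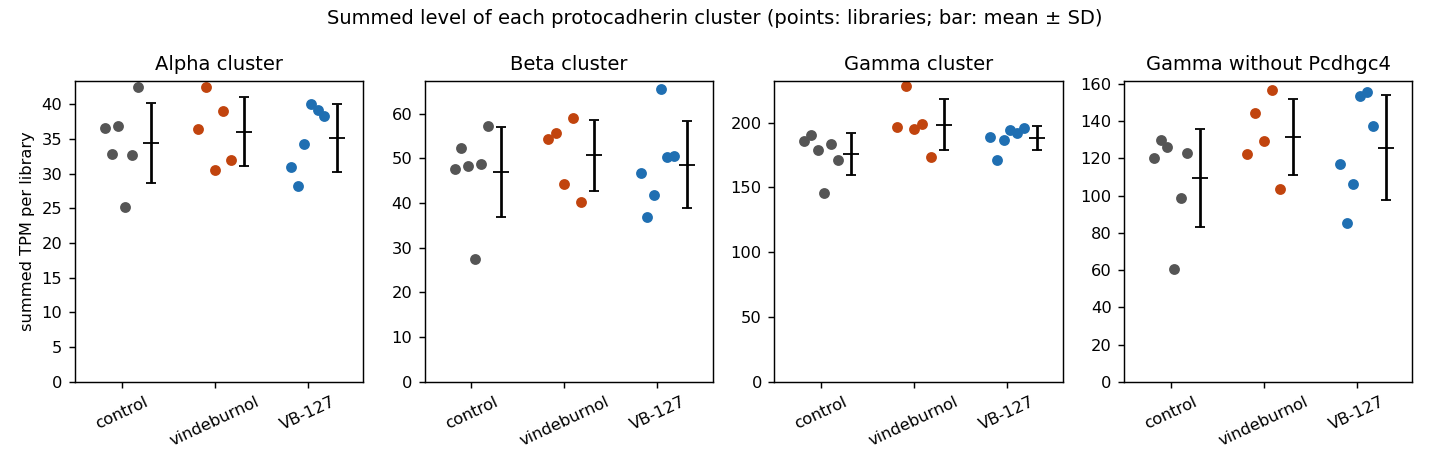
Summed TPM of the alpha, beta and gamma clusters, and of the gamma cluster without Pcdhgc4, in each library (points) by group; bars are mean ± SD, and each vertical axis starts at 0. The groups overlap in all 4 sums, and control replicate 4 is the lowest library in each.

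Control replicate 4 had the lowest sums of all 17 libraries, at 25.2 TPM for alpha, 27.5 for beta and 145 for gamma, beside the highest Bc1 share. Its sum of the neuron markers Snap25, Syt1, Rbfox3, Eno2 and Tubb3 was also the lowest, at 1419 TPM, against 1924.5 in the next lowest library. Without control replicate 4 the log2 ratio of the mean sums of vindeburnol to control changed from 0.07 to -0.01 for alpha and from 0.11 to -0.004 for beta, and that of VB-127 to control from 0.03 to -0.05 and from 0.05 to -0.06. The gamma ratio of VB-127 to control changed from 0.10 to 0.05. For vindeburnol to control the gamma ratio stayed above 0, at 0.12 to 0.22 with 1 library left out at a time. With median-ratio scaling it was 0.09. Median-ratio scaling lowered the coefficient of variation over the 17 libraries from 14.0% to 7.76% for the alpha sum, from 18.5% to 13.4% for beta and from 9.13% to 7.36% for gamma.

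No clustered protocadherin gene passed the test after vindeburnol. In limma on log2(TPM + 1), fitted to all 17 libraries and adjusted over 16153 genes, 0 of 53 genes had an adjusted p under 0.05, where 0% of all genes tested did. At an unadjusted p under 0.05 there was 1 gene, Pcdhga12, against a background of 8.17%. No gene had every library of 1 group above every library of the other, which 0.520% of all genes did. The difference was above 0 for 41 of 53 genes (7 of 12 alpha, 14 of 20 beta and 20 of 21 gamma), where 69.7% of all genes lay above 0. The median difference was 0.02 for alpha, 0.07 for beta and 0.26 for gamma, beside 0.08 over all genes. Adding 1 TPM before the log makes these differences smaller than log2 ratios of TPM, most of all for genes at 1 to 2 TPM. With 0.1 TPM added instead, the medians were 0.04, 0.10 and 0.35, beside 0.09 over all genes. The gamma median was 0.20 with median-ratio scaling (19 of 21 genes above 0), 0.19 with quantile normalization and 0.13 without control replicate 4, whereas the alpha median was below 0 in all 3 of these settings and the beta median in the last 2. Gamma genes vary together between libraries, so a count of their signs is no test. The 95% intervals of single genes reached down to -0.64 and up to 0.87, so a change within that span may have been missed in the most variable genes.

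Pcdhga12, the last A-type gene of the gamma cluster, had the smallest p. It measured 4.09, 3.91, 4.56, 2.47, 3.27 and 4.73 TPM in controls and 5.06, 5.67, 4.77, 6.65 and 3.54 TPM after vindeburnol, so 4 of 5 vindeburnol libraries lay above all controls and replicate 5 lay among them. The log2 difference was 0.34 (SE 0.16, 95% interval 0.00 to 0.68, limma adjusted p = 0.609). Pcdhga8 measured 2.27 to 5.44 TPM in controls (mean 3.80) and 4.25, 5.90, 4.12, 6.60 and 4.34 TPM after vindeburnol (mean 5.04), which is 0.35 higher on the log2 scale (limma adjusted p = 0.617).

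On the lower side Pcdha9 had a log2 difference of -0.21 (95% interval -0.62 to 0.21, limma adjusted p = 0.804). Vindeburnol replicate 2, at 4.49 TPM, was its highest library and replicate 4, at 1.40 TPM, its lowest, so the spread within the group covered the controls (2.00 to 3.99 TPM). Pcdha12 measured 3.81, 2.66, 3.08, 1.77, 1.83 and 1.45 TPM in controls and 1.66, 2.59, 1.36, 1.88 and 2.42 TPM after vindeburnol, a difference of -0.18 on the log2 scale (95% interval -0.56 to 0.20). For the C-type genes the difference was 0.02 for Pcdhgc4 (-0.45 to 0.49), 0.23 for Pcdhgc3 (-0.14 to 0.60), 0.24 for Pcdhgc5 (-0.21 to 0.69), 0.11 for Pcdhac2 (-0.22 to 0.43) and -0.17 for Pcdhac1 (-0.56 to 0.23). Other scalings gave Pcdhgc4 a difference of the opposite sign.

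After VB-127 no gene of the family passed the test either. Of 53 genes, 0 had an adjusted p under 0.05 in limma, where 0.00619% of all genes did (1 gene, outside the family). At an unadjusted p under 0.05 there was 1 gene, Pcdhb20, against 10.2% of all genes. The difference was above 0 for 36 of 53 genes (6 of 12 alpha, 11 of 20 beta and 19 of 21 gamma), below the 79.4% of all genes above 0. The median difference was 0.01 for alpha, 0.02 for beta and 0.19 for gamma, beside 0.11 over all genes. With 0.1 TPM added before the log in place of 1, the medians were 0.02, 0.04 and 0.23, beside 0.13 over all genes. With median-ratio scaling the median was 0.09 for gamma (16 of 21 genes above 0), -0.07 for alpha and -0.06 for beta, and without control replicate 4 it was 0.07, -0.06 and -0.05. These values rest on the same 6 control libraries as those of vindeburnol.

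In unscaled TPM Pcdhb20 was the 1 gene of 53 in which all libraries of a compound lay on 1 side of all controls, a pattern that 0.669% of all genes showed. It measured 3.42, 3.10, 3.34, 2.33, 3.66 and 2.13 TPM in controls and 4.64, 3.84, 3.98, 3.84, 3.93 and 3.96 TPM after VB-127. The VB-127 libraries spanned a narrow range apart from replicate 1. The gap between the groups was also narrow, from 3.66 to 3.84 TPM. Median-ratio size factors were 1.10, 1.11 and 1.10 in VB-127 replicates 4, 5 and 6 and 0.978 in control replicate 5. Divided by these factors, the 2 groups overlap. The log2 difference was 0.35 (SE 0.13, 95% interval 0.07 to 0.62, limma adjusted p = 0.470), so it did not pass the threshold. After vindeburnol the gene measured 3.05, 4.77, 3.38, 4.14 and 3.32 TPM, which overlapped both other groups.

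Pcdhb15 measured 0.737 to 1.46 TPM in controls (mean 1.10) and 1.43, 1.07, 1.73, 1.78, 2.09 and 1.35 TPM after VB-127 (mean 1.57). The log2 difference was 0.29 (95% interval -0.01 to 0.60, limma adjusted p = 0.50). The genes with the smallest p on the lower side were Pcdhb6, with means of 1.76 TPM in controls and 1.20 TPM after VB-127 (log2 difference -0.32, 95% interval -0.71 to 0.07), and Pcdha3 (-0.17, -0.45 to 0.11). Pcdhb6 measured 1.6, 1.69, 2.70, 0.744, 1.80 and 2.03 TPM in controls and 0.938, 0.523, 1.27, 1.67, 1.17 and 1.61 TPM after VB-127. Pcdha3 measured 1.21 to 2.41 TPM in controls (median 1.85) and 1.27 to 1.71 TPM after VB-127 (median 1.51). Both overlapped the controls. Among the C-type genes the difference was -0.12 for Pcdhgc4 (-0.57 to 0.33), 0.22 for Pcdhgc3 (-0.13 to 0.57), 0.26 for Pcdhgc5 (-0.17 to 0.70), 0.12 for Pcdhac2 (-0.19 to 0.43) and -0.01 for Pcdhac1 (-0.39 to 0.36).

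**Figure D4:**
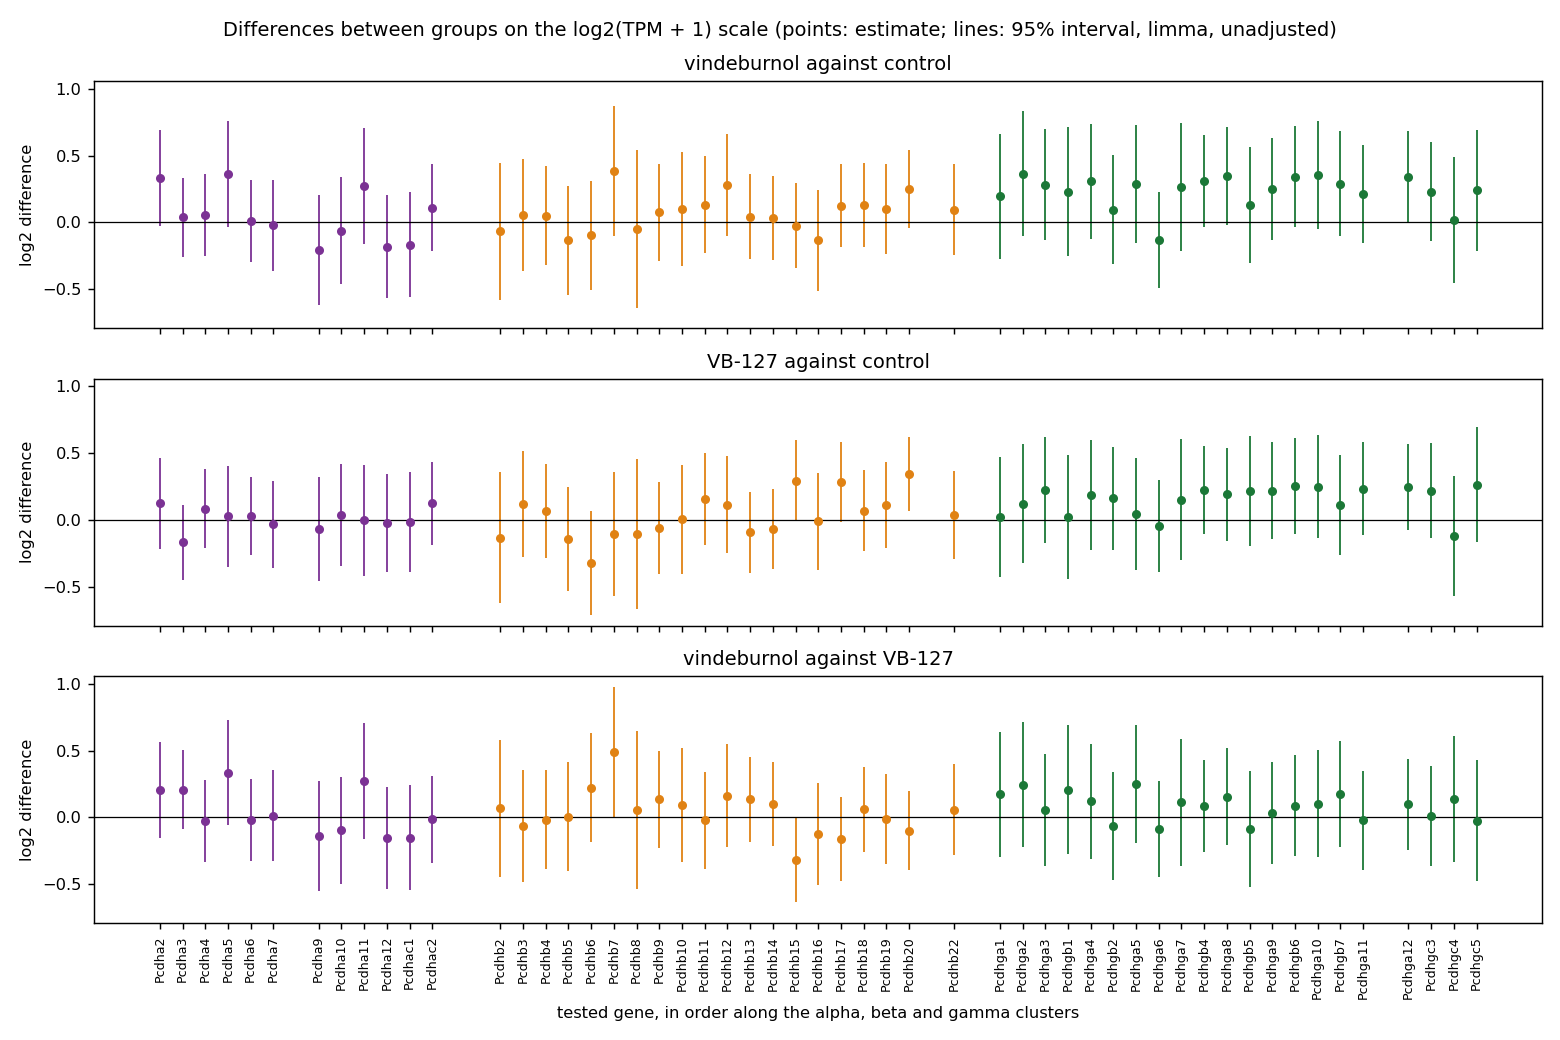
Difference between groups on the log2(TPM + 1) scale for the 53 tested genes in order along the clusters, for vindeburnol against control, VB-127 against control and vindeburnol against VB-127; points are estimates and lines are unadjusted 95% intervals from limma. Gamma genes lie mostly above 0 in both comparisons with the shared controls (20 and 19 of 21), where 69.7% and 79.4% of all genes do. Without control replicate 4 the gamma counts are 19 and 14 of 21. No gene of the family passed the adjusted threshold in any comparison.

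The 2 compounds, given at the same dose and for the same time, were then set against each other, as 1 pair. Of 53 genes, 0 had an adjusted p under 0.05 in limma, where 0% of all genes did, and 1 gene, Pcdhb15, had an unadjusted p under 0.05, against 3.38% of all genes. No gene had groups that did not overlap, which 0.390% of all genes did. The difference of vindeburnol minus VB-127 was above 0 for 33 of 53 genes, where 38.9% of all genes lay above 0, and its median was 0.06 beside -0.03 over all genes. The median was 0.10 for gamma and -0.01 with library weights, 0.06 and -0.04 for beta, and -0.02 and -0.06 for alpha.

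Pcdhb15 had a log2 difference of -0.32 (95% interval -0.63 to -0.0003, limma adjusted p = 1.00). Its 5 vindeburnol libraries were close together, at 1.11, 1.03, 1.06, 0.990 and 1.05 TPM, and all but VB-127 replicate 2 lay above them. Pcdhb7 had a difference of 0.49 (95% interval -0.0001 to 0.97, limma adjusted p = 1.00). It measured 4.59, 1.98, 2.04, 3.07 and 1.96 TPM after vindeburnol and 1.75, 1.34, 1.13, 3.52, 1.58 and 0.811 TPM after VB-127, and VB-127 replicate 4 was the only VB-127 library above the lowest vindeburnol library. Pcdha5 had a difference of 0.34 (-0.06 to 0.73), with 3.07, 2.14, 1.95, 1.73 and 1.29 TPM after vindeburnol against a range of 0.873 to 1.67 TPM after VB-127 (median 1.48), so only vindeburnol replicate 5 lay among the VB-127 libraries. Pcdhb17 had one of -0.16 (-0.47 to 0.15), with 3.16, 4.39, 2.40, 2.91 and 2.89 TPM after vindeburnol against a range of 3.03 to 3.97 TPM after VB-127 (median 3.70).

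For the C-type genes the difference between the compounds was 0.14 for Pcdhgc4 (95% interval -0.33 to 0.61), 0.01 for Pcdhgc3 (-0.36 to 0.38), -0.02 for Pcdhgc5 (-0.48 to 0.43), -0.01 for Pcdhac2 (-0.34 to 0.31) and -0.15 for Pcdhac1 (-0.54 to 0.24). These intervals leave room for differences in either direction. They do not show that the compounds act alike on the family.

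Genes that act on the clusters or with their proteins were described from lists. Of 20 genes of chromatin and promoter choice (CTCF, cohesin, DNA methylation and silencing), 19 were tested, and 0 passed the adjusted threshold in limma in any comparison. The smallest p belonged to Trim28, a co-repressor of zinc-finger proteins that silences repeats, with means of 62.4 TPM ± 8.87 (SD, n = 6) in controls, 88.6 ± 12.6 (n = 5) after vindeburnol and 82.6 ± 7.29 (n = 6) after VB-127. Its log2 difference was 0.50 (limma adjusted p = 0.319) and 0.41 (adjusted p = 0.454). At an unadjusted p under 0.05 the list held 2 higher genes after vindeburnol (Trim28 and Smchd1, a silencer of the clusters, at 0.37), where 8.17% of all genes had such a p, and 1 after VB-127, where 10.2% did. These are 2 and 1 of 19 genes, so the list lies near or below the background. Ctcf itself ranged from 15.5 to 33.2 TPM over the libraries.

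Of 24 partners and signalling genes (kinases, secretases that cut the proteins, the WAVE complex, Ret and Axin1) all 24 were tested and 0 passed the adjusted threshold in limma in any comparison, with 0 and 2 higher genes at an unadjusted p under 0.05 after vindeburnol and VB-127, at or under the 8.17% and 10.2% of all genes. The 2 were the kinases Abl1 (0.33, adjusted p = 0.470) and Fyn (0.21, adjusted p = 0.484). Of 12 non-clustered protocadherins, relatives outside the clusters, 11 were tested and 0 passed. Pcdh1 (0.31) and Pcdh15 (0.43) had an unadjusted p under 0.05 after VB-127, which is 2 of 11 genes beside 10.2% of all genes. The median differences of the 3 lists were 0.04, 0.09 and 0.14 after vindeburnol and 0.11, 0.13 and 0.21 after VB-127, beside 0.08 and 0.11 over all genes.

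Single genes of the family varied between libraries of a group by an amount that depended on the gene. The SD of log2(TPM + 1) within groups had a median of 0.295 over the 53 genes, with medians of 0.275 for alpha, 0.256 for beta and 0.327 for gamma, beside 0.261 for all 16153 genes tested. Among genes with a mean of 1 to 5 TPM it was 0.292 for the 40 family members and 0.341 for 4508 genes, and at 5 to 10 TPM it was 0.337 for 8 members and 0.283 for 2459 genes. The members thus lay below genes of like level in the lower range and above them in the higher one. All members at 5 to 10 TPM except Pcdhb9 were gamma genes, so level and cluster cannot be told apart here. On this scale Pcdha3 (0.162) and Pcdhb13 (0.170) varied least. Adding 1 TPM before the log shrinks the spread of low genes, and the means of Pcdha3 and Pcdhb13 were 1.75 and 1.07 TPM. Pcdhb8 (0.522) and Pcdhb2 (0.429) varied most: Pcdhb8 ran from 1.09 to 5.63 TPM and Pcdhb2 from 0.572 to 3.17 TPM, with high and low libraries in every group.

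**Figure D5:**
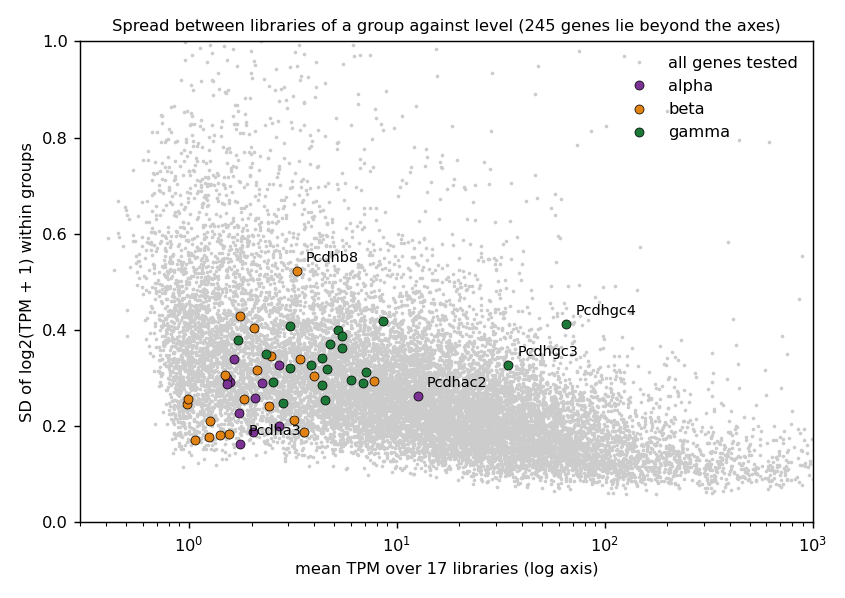
SD of log2(TPM + 1) between libraries of a group (vertical axis) against mean TPM (log axis) for all genes tested (grey) and for the tested alpha, beta and gamma genes; 245 genes beyond the axes are not drawn. Most family members lie within the cloud of genes of like level, with Pcdhgc4 at 0.413 and Pcdhgc3 at 0.327.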

How the data were processed

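Expression was measured by RNA-seq of poly(A) RNA in 17 libraries, made with a directional kit per the labels' protocols. The authors aligned reads with STAR and quantified them with Salmon on GRCm39, per the submitters' processing notes; versions, annotation and strand setting are not given in the sources used here. The deposited TPM values of 78298 genes per library were used as they stand; they carry no read depth. A second table was not used here.

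From these, log2(TPM + 1) (pseudocount 1) was fitted by group with limma 3.58.1 under R 4.3.3, using trended and robust eBayes moderation, for genes with at least 1 TPM in at least 5 libraries, which left 16153. The 3 comparisons were two-sided, with Benjamini-Hochberg adjustment over all genes tested. Cluster sums were described without a test. Relations between genes used 100000 permutations, two-sided. The fit was tested on simulated data.

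The members and lists were chosen with earlier results of these data known. Named by rule were, per cluster, the 4 highest genes, the C-type genes, the 2 smallest p per direction and comparison, and the 2 genes of lowest and of highest spread; Pcdhga6, Pcdhga1, Pcdhgb7, Pcdhb1 and Pcdha8 were named after their values were seen. GENCODE M21, of another build, gave gene order and transcript structure for 58 of 59 genes, and no coordinates are given. Alternatives covered pseudocount, filter, scaling, moderation, weights, groups in the fit, a replicate block and each library left out; median-ratio scaling and each library left out of the relations were added after the data were seen.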

Additional observations from a re-analysis of the deposited data

Results flagged for a closer look

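Of 90 groups of values checked, 5 held a library far from the others of its group (chance gives about 1 in 20). Pcdhb20 measured 4.64 TPM in VB-127 replicate 1, against 3.84 to 3.98 TPM in the other VB-127 libraries. Pcdhb7 measured 3.52 TPM in VB-127 replicate 4, against 0.811 to 1.75 TPM. Pcdhgc3 measured 18.6 TPM in control replicate 4, against 30.0 to 36.8 TPM in the other controls, and the beta sum of the same library was 27.5 TPM, against 47.7 to 57.2 TPM. The gamma sum was 171 TPM in VB-127 replicate 2, against 187 to 196 TPM in the other VB-127 libraries.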

How the results depend on the processing

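The count of genes called stayed at 0 of 53 in each of the 3 comparisons under all 28 alternatives, the smallest adjusted p of a named gene being 0.30. Replicate numbers do not mark shared animals in the labels. Same-numbered libraries did not deviate together (median r -0.0423 over 16 pairs, against 0.0208 over 80 other pairs). With the replicate block the calls were also 0. In this paired fit 1, 1 and 0 genes had an unadjusted p under 0.05. The share of all genes in that fit is not given here, so these counts cannot be judged. Of 756 values of named genes, 41 changed sign, none of them called, and the cause was not tested. Median-ratio scaling gave log2 ratios of VB-127 to control of -0.0911, -0.0655 and -0.0244 for the alpha, beta and gamma sums. For the alpha sum of vindeburnol to control it gave -0.0155. Among single genes it gave -0.0680 for Pcdhgc4 after vindeburnol, and 0.0217 for Pcdhac2 and 0.00951 for Pcdhgc5 between the compounds. Quantile normalization gave -0.0616, 0.0330 and 0.0315 for the same 3 genes and -0.0260 for Pcdhac2 after VB-127. Rescaling without Bc1 gave -0.0409 for Pcdhgc4 after vindeburnol. Library weights gave -0.00324 for Pcdhgc4 after vindeburnol, 0.0139 for Pcdhac1 after VB-127 and -0.115 for Pcdhgc3 between the compounds. The replicate block gave -0.0255 for Pcdhgc4 after vindeburnol, and 0.0523 for Pcdhac2 and 0.0232 for Pcdhgc5 between the compounds. Leaving out 1 library at a time gave -0.0693 to 0.174 for Pcdhgc4 after vindeburnol, -0.227 to 0.0136 for Pcdhgc4 after VB-127 and -0.0775 to 0.0752 for Pcdhac1 after VB-127. Between the compounds it gave -0.0991 to 0.0383 for Pcdhac2, -0.0920 to 0.0997 for Pcdhgc3 and -0.109 to 0.0721 for Pcdhgc5. Median-ratio scaling moved the median difference of all genes to 0.003 after vindeburnol and 0.008 after VB-127. TPM holds no depth, so the error of low genes such as Pcdha8 cannot be given.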
